A study of Rattus norvegicus with 26 samples.

Results

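Rat spinal cord sampled 1 week after transplantation of hUC-MSCs (+MSC-1w) was compared with cord of uninjured rats (Intact), over all genes that passed an expression filter. The comparison uses 7 of the 26 RNA sequencing libraries of the series, 3 of +MSC-1w and 4 of Intact, and 17990 of the 32883 genes in the count table. The abbreviation hUC-MSC stands for a mesenchymal stem cell grown from human umbilical cord. The question was which transcripts still differed from those of intact tissue after the first week of treatment.

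All libraries came from wild-type Sprague-Dawley rats, and the labels give postnatal day 70 as the age in every group, without saying whether it is the age at injury or at sampling. In the +MSC-1w rats, adult females of 250 g, the cord had been compressed at T10 for 1 min with an aneurysm clip of 60 g clamping force, hUC-MSCs were injected intrathecally at day 7 after the injury, and tissue was taken 1 week later. The Intact rats are untreated in the labels and intact or sham rats in the study's methods. As reference points, 3 libraries of injured rats at the time of transplantation (sub-SCI) and 3 of injured rats 1 week after vehicle injection (+PBS-1w) are given beside them. RNA was taken from segments of 5 mm centered at the lesion or from the comparable intact segment. Each +MSC-1w rat thus carried the injury, the injection and the human cells together. After the injection of hUC-MSCs or PBS, the study's methods give rats cyclosporin A, an immunosuppressant, without limiting it to either group. Whether Intact rats received it is not given in the sources used here, so these parts of the difference cannot be told apart.

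After compression of the cord, neurons and myelin are lost around the lesion, microglia and blood-derived macrophages take up the debris, astrocytes become reactive, and fibroblasts deposit scar matrix. Phagocytes that have taken up myelin hold large amounts of cholesterol, which they store as esters or export on apolipoprotein E. Sterol synthesis is controlled by the transcription factor SREBP-2, which is active when cells are short of sterol. In whole tissue, fewer cells of a type and less RNA per cell cannot be told apart.

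The total count per library was between 19496602 and 26813098 in Intact and between 24462279 and 33484347 in +MSC-1w. Levels are given as CPM, the read counts of a gene per 1000000 counts of its library after TMM scaling, and differences as log2 fold changes of +MSC-1w against Intact with their 95% interval in brackets. A gene is called a DEG where edgeR's quasi-likelihood test gives an adjusted p under 0.01 and the log2 fold change is beyond 1 in either direction. The study's methods call the libraries of a condition biological replicates, and the labels do not say that each came from a separate rat. The p-values measure the spread between samples within groups, estimated from all 26 libraries in their 8 groups and not from these 7 alone. Genes of neurons and myelin were present in all 7 libraries, with summed levels of 14 neuron markers of 14288 to 16973 CPM in Intact and 5412 to 10611 CPM in +MSC-1w. Intact 1 and Intact 4 stood apart from the other Intact libraries. Intact 1 held 3.17 CPM of Prx, a protein of peripheral myelin, against 64.3 to 120 CPM in the other Intact libraries, and 16.2 CPM of Col1a1, a collagen of meninges and scar, against 140 to 418 CPM. Intact 4 held 160 CPM of Acta1, the skeletal muscle actin, against 4.21 to 7.19 CPM in the other 3. In +MSC-1w 3, RT1-Ba, a chain of MHC class II, was at 50.5 CPM against 0.180 and 2.11 CPM in the other 2. Medians of the lists that hold these genes are given with and without the library concerned.

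Of the 17990 genes, 1416 were DEGs higher in +MSC-1w than in Intact, which is 7.87% of the genes tested, and 474 were lower, which is 2.63%. The higher DEGs moved further. Their median log2 fold change was 1.89, 643 of them changed more than 4-fold and 82 more than 16-fold. The lower DEGs had a median log2 fold change of -1.26, and 24 changed more than 4-fold. Protein-coding genes made up 1353 of the higher and 445 of the lower DEGs. The same model gave 6132 DEGs for sub-SCI against Intact and 4684 for +PBS-1w against Intact. These comparisons share the Intact libraries with the one described here. The count of lower DEGs rested on every library: it was 270 without Intact 1, 329 without Intact 2, 288 without Intact 3, 388 without Intact 4, 296 without +MSC-1w 1, 260 without +MSC-1w 2 and 176 without +MSC-1w 3. The count of higher DEGs stayed between 1222 and 1410 under the same omissions.

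**Figure D1:**
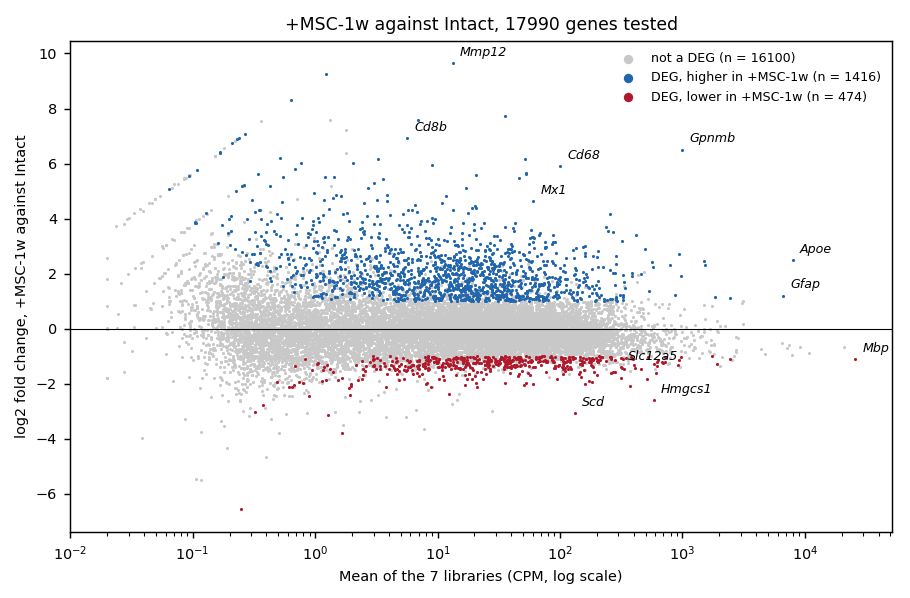
Log2 fold change of +MSC-1w against Intact (vertical axis) by the mean level over the 7 libraries (horizontal axis, CPM on a log scale, levels below 0.02 CPM drawn at 0.02) for the 17990 genes tested, one point a gene. The 1416 higher DEGs spread up to a log2 fold change of 9.65, while most of the 474 lower DEGs lie close to the threshold of -1.

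The 10 higher DEGs with the smallest p were Tgif1, Unc93b1, Gpnmb, Cd8b, Clec7a, Arl11, Grn, Cd68, Lpxn and Dnase2. Several belong to the endosomes and lysosomes of phagocytes: Unc93b1 carries nucleic acid-sensing Toll-like receptors to endosomes, Grn encodes progranulin, Cd68 is a membrane protein of macrophage lysosomes and Dnase2 digests DNA in lysosomes. The 10 lower DEGs with the smallest p were Msmo1, Acat2, Hsd17b7, Nsdhl, Aacs, Scd, Sc5d, Fdft1, Sqle and Mvk. All 10 encode enzymes of sterol or fatty acid metabolism. Msmo1, Hsd17b7, Nsdhl, Sc5d, Fdft1, Sqle and Mvk act in cholesterol synthesis, Acat2 and Aacs make acetoacetyl-CoA, and Scd desaturates fatty acids. Neither set of 10 was chosen by function.

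Nearly the whole cholesterol synthesis pathway was lower in +MSC-1w. Of 22 genes of the pathway and its sterol sensing, 19 were DEGs lower in +MSC-1w and none was higher, against 2.63% lower among all genes. The median log2 fold change of the list was -1.78, where the median of all genes was -0.01. In each of the 22 genes every +MSC-1w library lay below every Intact library, which held for 25.5% of all genes. Leaving out any 1 of the 7 libraries left 18 or 19 of the members as lower DEGs.

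Hmgcs1, the enzyme that makes HMG-CoA, stood at 987, 1065, 782 and 787 CPM in the Intact libraries and at 166, 156 and 128 CPM in +MSC-1w. The groups lay far apart, and the log2 fold change was -2.59 [-3.19, -2.0] with an adjusted p of 5.50e-07 by edgeR. Sqle, squalene epoxidase, was at 223, 224, 195 and 206 CPM in Intact and at 67.6, 62.8 and 59.7 CPM in +MSC-1w. Fdft1, squalene synthase, was at 254, 255, 219 and 224 CPM in Intact and at 65.0, 55.9 and 56.8 CPM in +MSC-1w. In both genes the highest +MSC-1w library lay far below the lowest Intact library, and the log2 fold changes of Sqle and Fdft1 were -1.74 and -2.01. Among the late enzymes Cyp51 fell by 2.07 on the log2 scale, Msmo1 fell by 1.94 and Sc5d fell by 1.81.

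Insig1, which holds the SREBP complex in the endoplasmic reticulum, was at 226 to 289 CPM in Intact and 61.3 to 75.0 CPM in +MSC-1w. Of the members that were not DEGs, Srebf2, the gene of SREBP-2 itself, had a log2 fold change of -0.95 [-1.18, -0.73], just under the fold threshold. Ebp had -0.75 [-1.04, -0.46], and Dhcr7, the last reductase, had -1.13 [-1.83, -0.43] with an adjusted p of 0.014 by edgeR. Outside the list, Scd was lower by the largest amount of the 10 genes with the smallest p, at 195 to 246 CPM in Intact and 20.7 to 31.2 CPM in +MSC-1w. Its log2 fold change was -3.07 [-3.70, -2.44].

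None of the 22 members was a DEG in +MSC-1w against sub-SCI, a comparison in which 6.46% of all genes were higher and 3.52% lower, and the median log2 fold change of the list there was 0.06. For Sqle this difference was 0.00 [-0.37, 0.37], and for Mvk it was -0.02 [-0.32, 0.28]. The median of the list against Intact was -1.83 in sub-SCI and -2.17 in +PBS-1w. Sqle stood at 63.1 ± 16.8 CPM in sub-SCI (SD, n = 3), 46.7 ± 11.3 CPM in +PBS-1w (SD, n = 3) and 63.3 ± 3.97 CPM in +MSC-1w (SD, n = 3), against 212 ± 13.9 CPM in Intact (SD, n = 4).

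**Figure D2:**
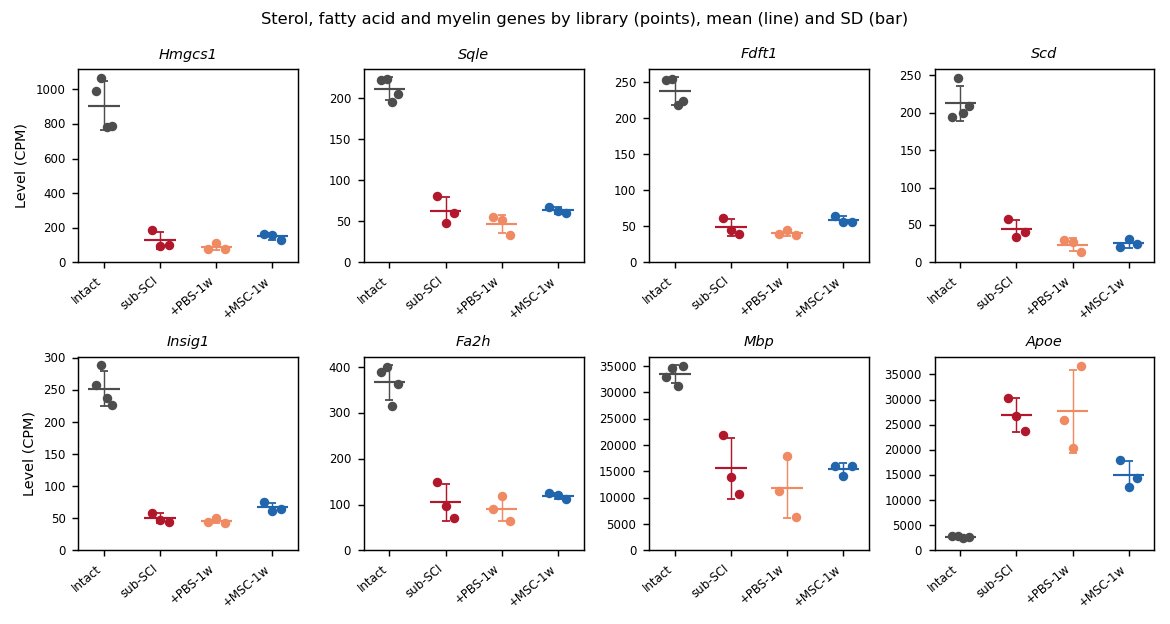
Level in CPM (vertical axis, from 0) of 4 sterol and fatty acid synthesis genes (Hmgcs1, Sqle, Fdft1, Scd), Insig1, 2 myelin genes (Fa2h, Mbp) and Apoe in Intact, sub-SCI, +PBS-1w and +MSC-1w. Points are libraries, lines the group means and bars the SD. Hmgcs1 lay at 782 CPM or more in every Intact library and at 166 CPM or less in every +MSC-1w library, while Apoe lay at 12638 CPM or more in every +MSC-1w library and at 2805 CPM or less in every Intact library.

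Genes for the storage and export of cholesterol went the other way. Of 13 tested, 9 were DEGs higher in +MSC-1w, against 7.87% of all genes, and none was lower. Their median log2 fold change was 2.31. Apoe, the apolipoprotein that carries cholesterol out of glia and macrophages, was at 2805, 2776, 2433 and 2751 CPM in Intact and at 17916, 12638 and 14488 CPM in +MSC-1w. Abca1, the pump that loads cholesterol onto apolipoproteins, rose by a log2 fold change of 2.81 [2.20, 3.42]. Soat1, which esterifies cholesterol, rose by 2.31, and Plin2, a coat protein of lipid droplets, by 2.32. Ch25h, which makes 25-hydroxycholesterol, rose by 2.63, and Nr1h3, the gene of the sterol-sensing receptor LXR-alpha, by 1.31. Abcg1 stood at 0.86 [0.48, 1.24] and was not a DEG.

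Myelin genes were lower, though less evenly. Of 15 central myelin and oligodendrocyte genes, 5 were DEGs lower in +MSC-1w, against 2.63% of all genes, and none was higher. The median log2 fold change of the list was -0.75. The 5 were Fa2h, Ugt8, Mobp, Mbp and Ermn. Fa2h, which hydroxylates the fatty acids of myelin lipids, was at 389, 400, 315 and 363 CPM in Intact and at 125, 122 and 112 CPM in +MSC-1w. Ugt8, which makes galactosylceramide, the main glycolipid of myelin, had a log2 fold change of -1.37 [-1.98, -0.75]. Mbp, myelin basic protein, was at 31206 to 35084 CPM in Intact and at 16058, 14036 and 16064 CPM in +MSC-1w, with a log2 change of -1.12 [-1.72, -0.52]. The lipid enzymes and structural proteins of the sheath were thus both among the lower DEGs.

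Other genes of the same cells lay close to the intact level. Cldn11, the tight junction protein of myelin, had a log2 fold change of 0.13 [-0.23, 0.49], Aspa 0.27 [-0.10, 0.63] and Opalin 0.05 [-0.60, 0.70]. None of 11 genes of oligodendrocyte precursors was a DEG, and their median was -0.07. Without +MSC-1w 1 the count of lower myelin genes was 2, and without +MSC-1w 2 it was 3.

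Of the gene lists, that of phagocytic macrophages and microglia had the highest median log2 fold change. Of its 18 genes, 16 were DEGs higher in +MSC-1w and none was lower, against 7.87% higher among all genes, and the median was 3.04. Gpnmb, a glycoprotein of lipid-laden phagocytes, was at 20.1, 20.8, 24.2 and 36.1 CPM in Intact and at 2892, 1965 and 2047 CPM in +MSC-1w. Its log2 fold change was 6.51 [5.70, 7.32] with an adjusted p of 5.21e-10 by edgeR. Cd68 was at 2.40, 3.30, 3.56 and 5.82 CPM in Intact and at 270, 199 and 216 CPM in +MSC-1w. Clec7a, the receptor Dectin-1, rose from 3.50 CPM or less in Intact to between 101 and 113 CPM. For these genes every +MSC-1w library lay above every Intact library, which held for 24.5% of all genes.

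Receptors that bind lipid and debris were among the members that rose. Trem2 had a log2 fold change of 3.41 [2.78, 4.03] and its signalling partner Tyrobp 3.41 [2.85, 3.97]. Msr1, a scavenger receptor, had 4.29 [3.30, 5.28], and Itgax, the integrin CD11c, had 3.91 [2.75, 5.08]. Lgals3, a lectin of activated phagocytes, had 4.15 [3.48, 4.81]. Spp1, osteopontin, was at 199 to 231 CPM in Intact and at 933 to 1236 CPM in +MSC-1w. The members that were not DEGs were Arg1, the arginase of repair-type macrophages, at -0.68 [-1.44, 0.08], and Cd163, the receptor for hemoglobin and haptoglobin, at 0.54 [-0.74, 1.82]. Arg1 was at 4.36 to 4.74 CPM in +MSC-1w, at 6.08 to 8.65 CPM in Intact and at a mean of 30.5 CPM in sub-SCI.

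Genes by which resting microglia are recognised were also higher, by smaller amounts. Of 12 homeostatic microglia genes, 8 were DEGs higher in +MSC-1w, against 7.87% of all genes. In all 12 every +MSC-1w library lay above every Intact library, which held for 24.5% of all genes. Their median log2 fold change was 1.33. Csf1r, the receptor that microglia need to survive, had 1.92 [1.47, 2.38]. P2ry12 had 1.15 [0.65, 1.65] and Tmem119 1.2 [0.71, 1.68]. Sall1, a transcription factor of microglial identity, had 0.44 [0.05, 0.84] and did not pass.

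Lysosomal enzymes followed the phagocyte genes. Of 17 lysosomal proteases and hydrolases, 14 were DEGs higher in +MSC-1w, against 7.87% of all genes, and none was lower. The median log2 fold change of the list was 1.99. Ctsd, cathepsin D, was at 440, 525, 520 and 541 CPM in Intact and at 2842, 2745 and 2808 CPM in +MSC-1w. Npc2, which moves cholesterol out of lysosomes, had a log2 fold change of 2.42 [2.01, 2.84], and Lipa, the lysosomal acid lipase, 1.35 [0.94, 1.75]. Lamp1 and Lamp2, the structural proteins of the lysosomal membrane, had 0.70 [0.46, 0.94] and 0.85 [0.68, 1.03] and were not DEGs under the fold threshold.

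Phagocyte and lysosome genes were lower in +MSC-1w than at transplantation, and still far above Intact. Against sub-SCI, 9 of the 18 phagocyte genes and 7 of the 17 lysosomal genes were lower DEGs, where 3.52% of all genes were, and none was higher. Gpnmb fell by 1.40 on the log2 scale between sub-SCI and +MSC-1w, Cd68 by 1.5 and Ctsl by 1.73. Gpnmb stood at a mean of 6082 CPM in sub-SCI, 4289 CPM in +PBS-1w and 2301 CPM in +MSC-1w, beside 25.3 CPM in Intact. Tested directly, the 2 treatments at 1 week did not differ for Gpnmb at the threshold: the log2 fold change of +MSC-1w against +PBS-1w was -0.90 [-1.63, -0.17] with an adjusted p of 0.19 by edgeR.

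Complement genes were raised from the first component to the receptors. Of 16 tested, 14 were DEGs higher in +MSC-1w, against 7.87% of all genes, and the median log2 fold change was 2.62. In all 16 every +MSC-1w library lay above every Intact library, against 24.5% of all genes. C1qa was at 58.0, 84.2, 78.0 and 108 CPM in Intact and at 845, 789 and 940 CPM in +MSC-1w. C1qb and C1qc had log2 fold changes of 3.51 and 3.69. C4a had 3.28 [2.68, 3.88], the receptor C3ar1 2.76 [1.91, 3.60], and the inhibitor Serping1 2.93 [2.17, 3.68]. C3, the central component, was at 133 to 250 CPM in Intact and 382 to 702 CPM in +MSC-1w, and with a log2 fold change of 1.55 [0.43, 2.66] and an adjusted p of 0.031 by edgeR it did not pass.

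**Figure D3:**
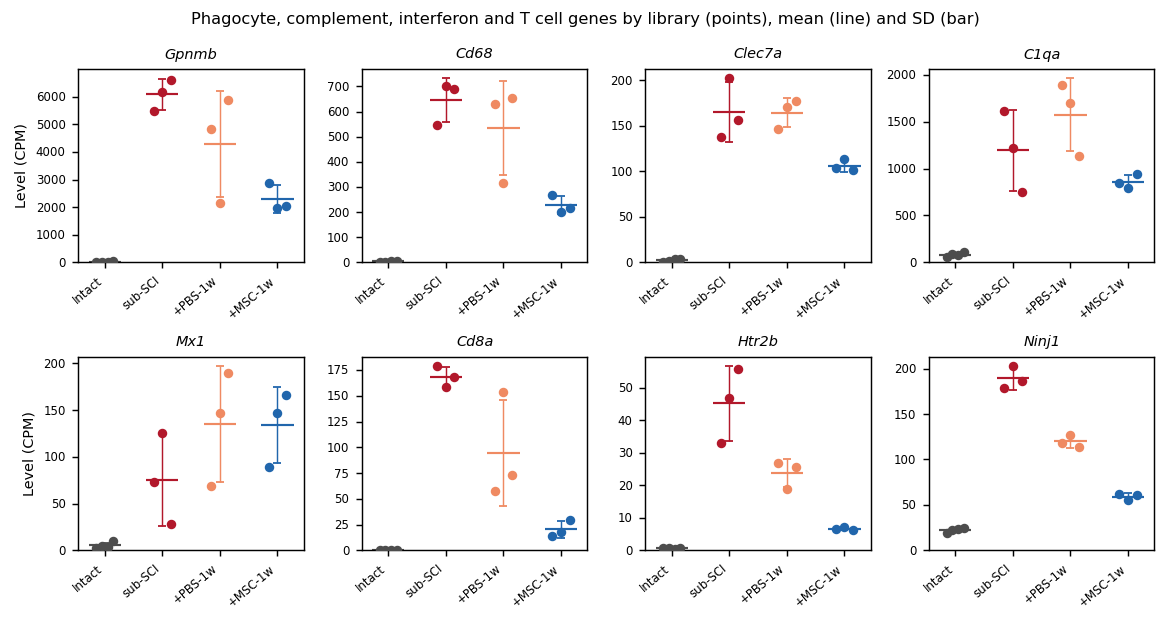
Level in CPM (vertical axis, from 0) of 3 phagocyte genes (Gpnmb, Cd68, Clec7a), C1qa, the interferon-stimulated gene Mx1, Cd8a, Htr2b and Ninj1 in Intact, sub-SCI, +PBS-1w and +MSC-1w. Points are libraries, lines the group means and bars the SD. Every +MSC-1w library lies above every Intact library in all 8 panels, whose genes were chosen with their values known, and in 24.5% of all genes. Htr2b lies at 7.25 CPM or less in +MSC-1w but at 18.9 CPM or more in +PBS-1w.

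Interferon-stimulated genes were higher as a group. Of 19 tested, 18 were DEGs higher in +MSC-1w, against 7.87% of all genes, with a median log2 fold change of 2.41. Mx1, a GTPase that blocks viruses, was at 2.89, 4.99, 4.02 and 9.46 CPM in Intact and at 88.7, 147 and 166 CPM in +MSC-1w. Irf7, the factor that amplifies the interferon response, was at 6.38 to 18.6 CPM in Intact and at 89.0, 126 and 135 CPM in +MSC-1w. Rsad2, the antiviral enzyme viperin, had a log2 fold change of 3.53 [2.42, 4.64], and Gbp2, a guanylate-binding protein, 3.0 [2.40, 3.59]. Stat2, which carries the interferon signal to the nucleus, had 0.79 [0.49, 1.09] and was the member that was not a DEG. No member of this list was a DEG against sub-SCI, and its median against Intact was 2.34 in sub-SCI, 2.80 in +PBS-1w and 2.41 in +MSC-1w.

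Because these members moved together, their promoters were read for the letters of a response element that interferon-activated factors bind. RefSeq promoters of the build GRCr8, 250 bases before to 50 bases after a start site, were matched for 15 of the 19 genes, with 1 promoter a gene. The letters GAAA followed after any 2 bases by GAAA again, on either strand, were found in 9 of the 15 (60%) and in 3.77% of all 27457 promoters in the table. They were also found in 3 of 13 matched lysosomal promoters (23.1%) and in 0 of 16 matched cholesterol synthesis promoters. The stretches around the match in the 4 genes with the largest fold change among those with a match upstream of the start are shown 5′ to 3′ on the gene's strand, with the matched letters in capitals. The Rsad2 stretch lies on the minus strand at chr6:48788238-48788287, the Irf7 stretch on the minus strand at chr1:205800063-205800112, the Ifit3 stretch on the plus strand at chr1:241527262-241527311 and the Gbp2 stretch on the plus strand at chr2:234005676-234005725.
Rsad2: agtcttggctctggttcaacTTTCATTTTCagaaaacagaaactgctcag
Irf7: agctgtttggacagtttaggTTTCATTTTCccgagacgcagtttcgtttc
Ifit3: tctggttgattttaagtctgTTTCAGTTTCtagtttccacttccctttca
Gbp2: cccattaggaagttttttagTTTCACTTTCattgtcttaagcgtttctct
The table and the counts rest on different builds, GRCr8 and Rnor6. A match is a description of the sequence and not a site shown to be bound. The letters TCACGTGA, an E-box read by lysosomal transcription factors, were found in 2 of 13 matched lysosomal promoters (15.4%) and in 0.867% of all promoters. The letters TCACNCCAC, one form of a sterol regulatory element, were found in 0 of 16 matched cholesterol synthesis promoters and in 1.13% of all promoters, which says only that these letters are not in these windows.

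Genes of T cells and chemokines that draw leukocytes were among the higher DEGs. Cd8a was at 0.164, 0.366, 0.185 and 0.532 CPM in Intact and at 14.1, 17.6 and 29.9 CPM in +MSC-1w, and Cd8b rose from 0.183 CPM or less to between 10.5 and 16.0 CPM. Both chains of CD8 are carried by cytotoxic T cells, and in rats CD8A is also found on natural killer cells and some macrophages. The signalling chains Cd3d, Cd3e and Cd3g stood lower, at 0.255 to 2.60 CPM in +MSC-1w. Of 17 T and B lymphocyte genes, 6 were DEGs higher in +MSC-1w, against 7.87% of all genes, and none was lower. The 6 were Cd8a, Cd8b, Cd4, Lck, Cd3d and Cd3e. The B cell genes Pax5, Ms4a1 and Cd79b were at 2.43 CPM or less in every library of both groups, and none was a DEG. Without Intact 1 or Intact 3 or +MSC-1w 3 the count was 4 instead of 6. Of the list, Cd8a showed the largest fall since transplantation, to a log2 fold change of -3.04 [-3.91, -2.17] against sub-SCI.

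Of 21 chemokine and cytokine genes, 15 were DEGs higher in +MSC-1w, against 7.87% of all genes, with a median log2 fold change of 2.42. Cxcl10, which attracts activated T cells, was at 0.694 to 1.56 CPM in Intact and at 20.7, 21.8 and 29.4 CPM in +MSC-1w. Ccl2, which attracts monocytes, was at 0.109 to 0.722 CPM in Intact and at 4.42, 6.16 and 11.0 CPM in +MSC-1w. Tgfb1, a cytokine that favours scar formation, had a log2 fold change of 2.42 [2.01, 2.83]. Il1b and Il6 were at 3.27 CPM or less in every library of both groups and were not DEGs. Ccl5, Ccl7, Ccl6 and Cxcr4 were lower in +MSC-1w than in sub-SCI.

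Genes of inflammatory cell death were raised. Of 14 tested, 11 were DEGs higher in +MSC-1w, against 7.87% of all genes, and none was lower. Their median log2 fold change was 1.83. Casp1, the protease of the inflammasome, was at 2.79 to 5.44 CPM in Intact and at 16.9, 17.1 and 17.4 CPM in +MSC-1w. Gsdmd, which forms pores in pyroptosis, had a log2 fold change of 1.51 [1.17, 1.85], and Mlkl, which ruptures the membrane in necroptosis, 2.63 [1.98, 3.28]. Bcl2, which opposes apoptosis, had 0.15 [-0.57, 0.87]. Ninj1, which mediates the final rupture of the plasma membrane in lytic death, was at 19.4, 22.4, 23.1 and 24.3 CPM in Intact and at 61.9, 55.0 and 60.8 CPM in +MSC-1w.

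Ninj1 and Htr2b, the gene of the serotonin receptor 2B, were the DEGs between +MSC-1w and +PBS-1w. Both were lower in +MSC-1w, 2 genes or 0.0111% of those tested, and 0 genes were higher (edgeR), while 1899 genes were higher and 1320 lower at an unadjusted p under 0.05. Ninj1 stood at 118, 127 and 114 CPM in +PBS-1w, a log2 fold change of -1.02 [-1.29, -0.74] for +MSC-1w against +PBS-1w. Htr2b was at 0.509 to 0.836 CPM in Intact, at 6.64, 7.25 and 6.22 CPM in +MSC-1w and at 26.8, 18.9 and 25.6 CPM in +PBS-1w, where the log2 fold change was -1.83 [-2.38, -1.27]. Both genes therefore lay between Intact and +PBS-1w in every +MSC-1w library. The study, with DESeq2 at the same thresholds, reported larger sets of genes called between the 2 treatments at 1 week. The count of 2 was not checked under the alternative settings, which were run against Intact and sub-SCI.

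Most genes of reactive astrocytes were higher. Of 13 reactive astrocyte genes, 10 were DEGs higher in +MSC-1w, against 7.87% of all genes, with a median log2 fold change of 1.89. Gfap, the intermediate filament of astrocytes, was at 3868, 5415, 3795 and 4057 CPM in Intact and at 10022, 10196 and 9322 CPM in +MSC-1w. Vim, another intermediate filament, had a log2 fold change of 2.72 [2.04, 3.40], Cd44, the receptor for hyaluronan, 1.89 [1.5, 2.29], and Timp1, an inhibitor of metalloproteinases, 3.32 [2.70, 3.95]. Vim is also made by fibroblasts and phagocytes, and its level in Intact 1 was 89.4 CPM against 304 to 372 CPM in the other Intact libraries.

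Of 12 homeostatic astrocyte genes 8 had a negative log2 fold change, with a list median of -0.44. In 6 of the 12 every +MSC-1w library lay below every Intact library, against 25.5% of all genes. In 3 every +MSC-1w library lay above, close to the 24.5% of all genes. Aqp4, the water channel of astrocyte endfeet, was at 2063, 2010, 1890 and 1949 CPM in Intact and at 2115, 2163 and 2098 CPM in +MSC-1w. Its log2 fold change was 0.10 [-0.40, 0.61], while against sub-SCI it was higher by a log2 fold change of 1.56. Glul, glutamine synthetase, stood at 0.09 [-0.14, 0.31], and Slc1a3, the glutamate transporter GLAST, at 0.30 [-0.03, 0.62]. Kcnj10, the potassium channel Kir4.1, was the DEG of the list, at 209 to 279 CPM in Intact and 98.5 to 105 CPM in +MSC-1w. It was not a DEG when any 1 of the +MSC-1w libraries was left out. Slc1a2, the transporter GLT-1, had -1.11 [-1.9, -0.31] and an adjusted p of 0.030 by edgeR. Against sub-SCI, 7 of the 12 genes were DEGs higher in +MSC-1w, against 6.46% of all genes.

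Genes of scar matrix lay between the levels of Intact and sub-SCI. Of 19 fibroblast and scar matrix genes, 4 were DEGs higher than in Intact (Thbs2, Postn, Col6a1 and Loxl2), against 7.87% of all genes. The median log2 fold change of the list was 1.67. Against sub-SCI, 4 members were lower DEGs, where 3.52% of all genes were. Postn, periostin, was at 2.40, 3.62, 9.30 and 13.8 CPM in Intact, at 16.5, 67.8 and 33.2 CPM in +MSC-1w and at a mean of 246 CPM in sub-SCI. Col1a1 was at 16.2, 140, 209 and 418 CPM in Intact and at 562, 895 and 818 CPM in +MSC-1w, and did not pass with an adjusted p of 0.026 by edgeR. Fibroblast genes varied within Intact, and the summed level of the list there ran from 1406 to 3207 CPM, with Intact 1 below the others for Col1a1, Dcn and Lum. Without Intact 1 the list had 3 higher DEGs and a median of 1.32, and without +MSC-1w 2 it had 1.

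Tnc, tenascin C, a matrix protein that astrocytes and fibroblasts make after injury, was at 7.04 to 16.4 CPM in Intact and at 48.0, 91.3 and 83.6 CPM in +MSC-1w. It had fallen by 3.12 on the log2 scale from sub-SCI. Of the other chondroitin sulfate proteoglycan and perineuronal net genes, Chsy1, which builds the sugar chains, rose by 1.72, while Acan fell by 1.58, and Hapln1, a link protein of the nets, fell by 1.97. Acan was at 31.2 to 32.4 CPM in Intact and at 12.1, 10.5 and 9.18 CPM in +MSC-1w. Of the 3 lower DEGs of this list, 1 was called without any one of the +MSC-1w libraries. Ncan, Bcan, Vcan and Ptprz1 were not DEGs, with log2 fold changes from -0.13 to 0.96. Of 15 metalloproteinase and inhibitor genes, 6 were DEGs higher, against 7.87% of all genes. Mmp12, the macrophage elastase, was at 0, 0, 0.0463 and 0.0760 CPM in Intact and at 65.0, 14.8 and 13.1 CPM in +MSC-1w.

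Neuronal genes were lower in level, but few of the markers passed the test in the main model. Of 14 neuron markers, Rbfox3 and Map2 were DEGs lower in +MSC-1w, against 2.63% of all genes. The median log2 fold change of the list was -1.04, near the fold threshold. Rbfox3, the neuronal nuclear protein NeuN, was at 76.1, 64.0, 74.6 and 62.8 CPM in Intact and at 34.0, 25.3 and 22.9 CPM in +MSC-1w. Its log2 fold change was -1.34 [-2.08, -0.60]. Snap25, a synaptic fusion protein, had -1.40 [-2.53, -0.27] with an adjusted p of 0.051 by edgeR. In 11 of the 14 genes every +MSC-1w library lay below every Intact library, against 25.5% of all genes. The +MSC-1w libraries differed among themselves, and Nefm, a neurofilament, was at 2531, 934 and 1562 CPM in them against 2977 to 3624 CPM in Intact. The 2 calls were lost or cut to 1 by leaving out any library, while the median stayed between -1.33 and -0.90. Among other settings, a test against a log2 fold change of 1 gave 0 lower markers. DESeq2 gave 4 on all libraries and 8 on the compared groups alone, where edgeR gave 7.

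**Figure D4:**
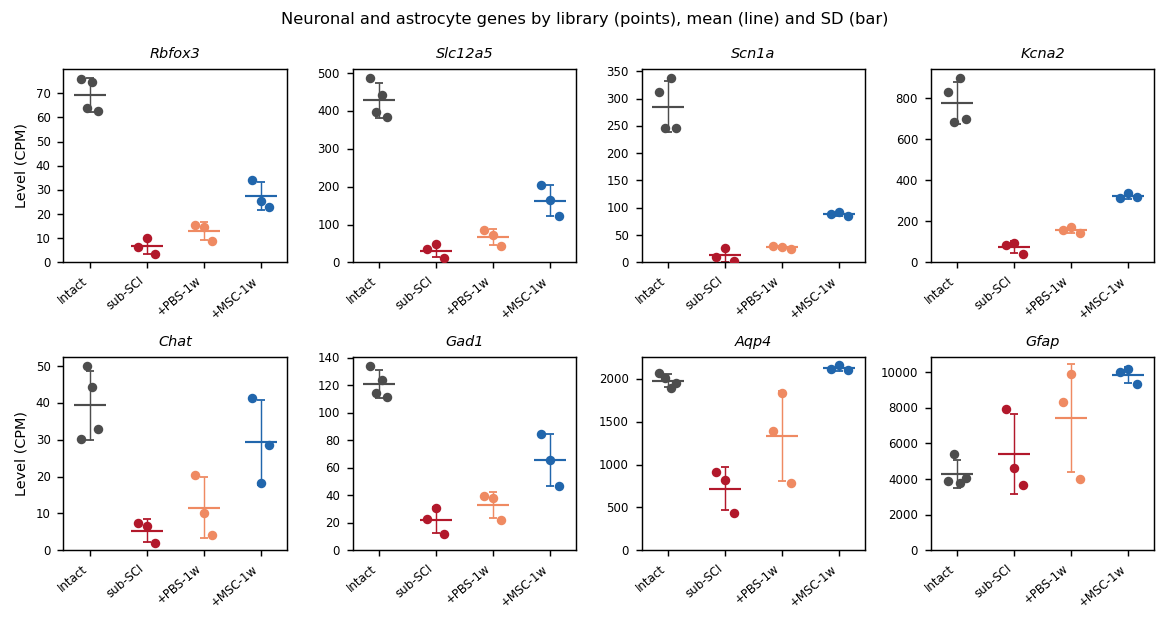
Level in CPM (vertical axis, from 0) of 6 neuronal genes (Rbfox3, Slc12a5, Scn1a, Kcna2, Chat, Gad1) and 2 astrocyte genes (Aqp4, Gfap) in Intact, sub-SCI, +PBS-1w and +MSC-1w. Points are libraries, lines the group means and bars the SD. Kcna2 lies at 336 CPM or less in +MSC-1w and at 682 CPM or more in Intact, Chat overlaps between these groups, and Aqp4 lies at 2098 CPM or more in +MSC-1w.

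Genes of ion channels that set the firing of axons were also among the lower DEGs. Of 26 voltage-gated sodium, calcium and potassium channel genes, 10 were DEGs lower in +MSC-1w, against 2.63% of all genes, none was higher, and the median log2 fold change was -1.16. Scn1a, a sodium channel of fast-firing neurons, was at 313, 246, 337 and 247 CPM in Intact and at 89.5, 92.5 and 85.7 CPM in +MSC-1w. Scn8a, the sodium channel of nodes of Ranvier, had -1.57 [-2.28, -0.86]. Kcna2, the potassium channel beside the paranode, was at 682 to 898 CPM in Intact and at 312, 336 and 317 CPM in +MSC-1w, with an adjusted p of 7.12e-05 by edgeR. Scn9a, a channel prominent in sensory neurons, had -0.12 [-0.79, 0.56]. The count of lower channels was 5 without +MSC-1w 1, 5 without +MSC-1w 2, 2 without +MSC-1w 3, 6 without Intact 1 and 6 without Intact 3. It was 0 in a test against a log2 fold change of 1 and 12 with DESeq2 on all libraries. On the compared groups alone, DESeq2 and edgeR each gave 14.

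Of 12 genes of the node and paranode, 5 were lower DEGs, against 2.63% of all genes: Scn8a, Kcna1, Kcna2, Cntnap1 and Ank3. Cntnap1, the Caspr protein that anchors the paranodal loops, was at 344 to 396 CPM in Intact and at 193, 165 and 147 CPM in +MSC-1w. Nfasc, the neurofascin of node and paranode, had -0.29 [-0.99, 0.41]. Nfasc is made by both neurons and oligodendrocytes. Without +MSC-1w 3 the count was 3.

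Some transcripts of inhibitory receptors were lower. Of 21 genes for GABA and glycine receptors, gephyrin and the chloride cotransporters, 6 were DEGs lower in +MSC-1w, against 2.63% of all genes. Among them were Glra1, Slc12a5, Gabbr2, Gabra3 and Glrb. The median log2 fold change of the list was -1.13. In 20 of the 21 every +MSC-1w library lay below every Intact library, against 25.5% of all genes. Slc12a5, the gene of KCC2, which keeps chloride low in mature neurons, was at 486, 398, 443 and 385 CPM in Intact and at 203, 164 and 122 CPM in +MSC-1w. Glra1, the adult glycine receptor subunit, was at 110 to 165 CPM in Intact and at 56.4, 60.2 and 44.1 CPM in +MSC-1w. Slc12a2, the gene of the chloride importer NKCC1, had -0.49 [-0.77, -0.20]. Gabra2 had -0.40 [-1.05, 0.24] and Gabrg1 -0.39 [-0.89, 0.12]. Leaving out any 1 of the 7 libraries reduced the 6 calls to 1 or 2, with the median between -1.19 and -1.02. A test against a log2 fold change of 1 gave 0 lower members. DESeq2 on all libraries gave 10, as did DESeq2 and edgeR on the compared groups alone.

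The enzymes and transporters of inhibitory transmitters gave 1 lower DEG among 8, against 2.63% of all genes. It was Slc6a11, a GABA transporter of astrocytes, at 180 to 243 CPM in Intact and 97.5, 82.4 and 67.7 CPM in +MSC-1w. It was not a DEG without +MSC-1w 2 or +MSC-1w 3. The list had 3 lower DEGs with DESeq2 or edgeR on the compared groups alone, and 0 in a test against a log2 fold change of 1. Gad1, which makes GABA, had -0.88 [-1.79, 0.02], and Slc6a5, the glycine transporter of inhibitory terminals, -1.28 [-2.31, -0.25]. Of 15 ionotropic glutamate receptor genes, Grin2d and Gria2 were lower DEGs, against 2.63% of all genes, with a list median of -1.03. Without +MSC-1w 1, +MSC-1w 3, Intact 1, Intact 3 or Intact 4 the count was 1. In a test against a log2 fold change of 1 it was 0. With DESeq2 on all libraries it was 8, as with DESeq2 and edgeR on the compared groups alone.

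None of 8 cholinergic and motor neuron genes was a DEG. Their median was -0.59, which was -0.92 without +MSC-1w 1 and -0.31 without +MSC-1w 2. Chat, which makes acetylcholine, was at 30.2, 50.0, 44.4 and 32.9 CPM in Intact and at 41.3, 18.3 and 28.5 CPM in +MSC-1w, so that the groups overlapped. Its interval of -1.24 to 0.40 allows a loss of more than 1 on the log2 scale as well as none. None of 14 glutamatergic, dorsal horn and interneuron genes was a DEG, with a median of -0.43, which was -0.89 without +MSC-1w 1, -0.29 without +MSC-1w 2 and -0.25 without +MSC-1w 3. On the compared groups alone, DESeq2 called 5 of these 14 lower and 1 higher, and edgeR called 3 lower. DESeq2 on all libraries called 1 lower. Penk, the precursor of enkephalins, had -0.19 [-1.26, 0.88], and Pdyn, the precursor of dynorphins, had 0.98 [0.05, 1.9], at 17.1 to 23.4 CPM in Intact and 62.3, 37.9 and 22 CPM in +MSC-1w.

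Measured directly against sub-SCI, many neuronal genes were higher in +MSC-1w. The DEGs higher than in sub-SCI numbered 6 of 14 neuron markers, 5 of 8 cholinergic genes, 6 of 8 inhibitory transmitter genes, 15 of the 21 receptor and cotransporter genes, 8 of 15 ionotropic glutamate receptors, 2 of 14 glutamatergic, dorsal horn and interneuron genes and 20 of 26 channels, where 6.46% of all genes were, and none of these genes was lower. Slc12a5 stood at a mean of 31.2 CPM in sub-SCI, 67.5 CPM in +PBS-1w and 164 CPM in +MSC-1w beside 428 CPM in Intact. Scn1a stood at 13.7, 27.6 and 89.2 CPM in the same order beside 285 CPM in Intact. The comparison with sub-SCI also spans the week after transplantation. Tested directly against +PBS-1w, none of the genes of these lists was a DEG. The list medians of that difference ran from 0.58 for the ionotropic glutamate receptors to 1.35 for the cholinergic genes. Its estimate was positive in every gene of these lists other than 2 of the 14 glutamatergic, dorsal horn and interneuron genes. The study reported GABA-A receptor subunits and KCC2 as raised by hUC-MSCs, from DESeq2 over its time points, quantitative PCR and Western blotting. The contrast with +PBS-1w was not run with DESeq2 here. The total of 1163 genes higher than in sub-SCI was 482 without sub-SCI 3 and 775 without +MSC-1w 1, and that of 633 lower genes was 330 and 420.

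**Figure D5:**
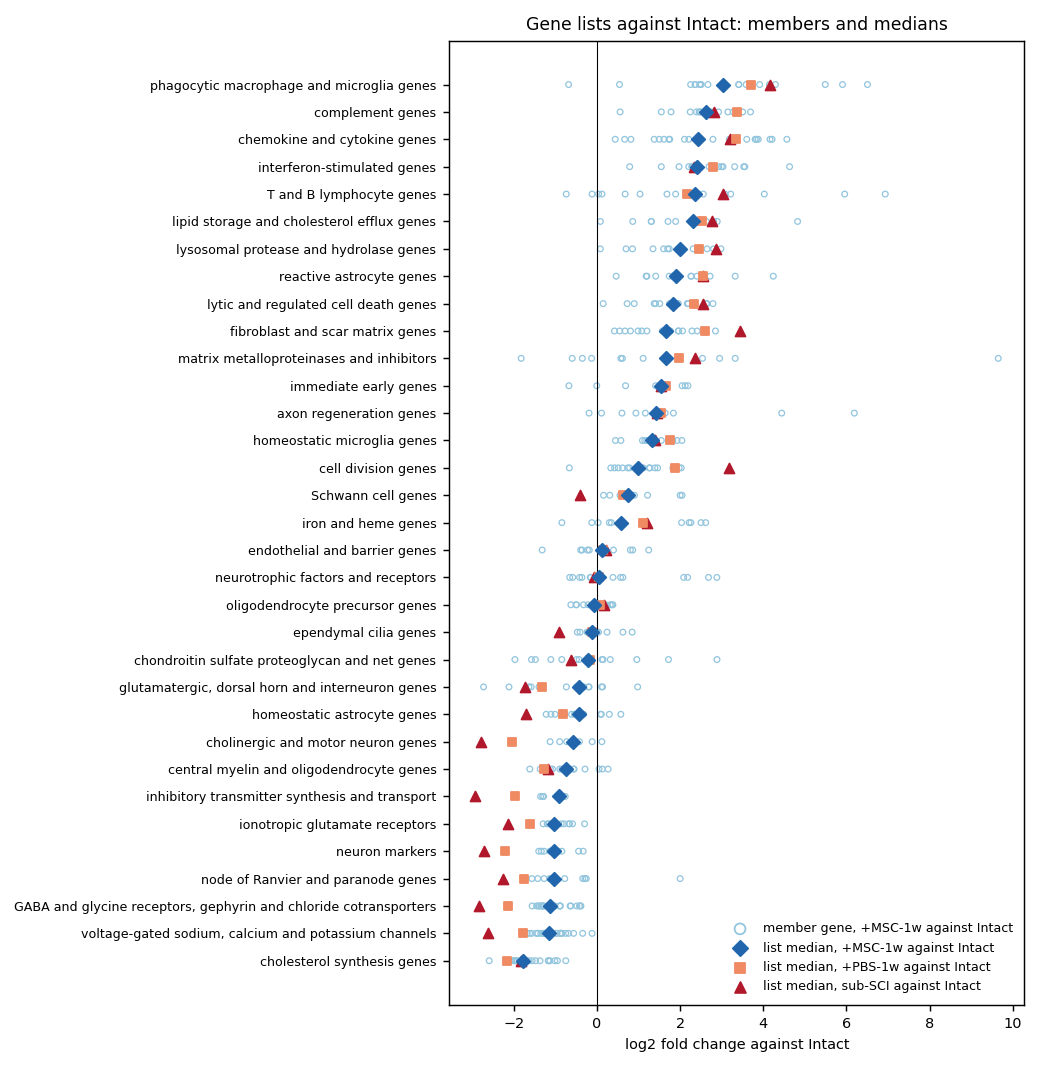
Log2 fold change against Intact (horizontal axis) for 33 gene lists (rows, ordered by the median in +MSC-1w). The lists of red cell, skeletal muscle, dorsal root ganglion, neutrophil and MHC class II genes are not drawn. Of these, skeletal muscle has a median of -2.79 in +MSC-1w, which is 0.39 without Intact 4. Open circles are member genes in +MSC-1w, and filled symbols are list medians for +MSC-1w (diamonds), +PBS-1w (squares) and sub-SCI (triangles), which share the same Intact libraries. Cholesterol synthesis has its 3 medians between -2.17 and -1.78, whereas neuron markers have medians of -2.72 in sub-SCI, -2.22 in +PBS-1w and -1.04 in +MSC-1w.

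Genes of injured and regrowing axons were raised beside the lower neuronal genes. Of 11 axon regeneration genes, 6 were DEGs higher in +MSC-1w, against 7.87% of all genes, with a median log2 fold change of 1.41. Atf3, a transcription factor induced by axon injury, was at 1.91, 2.70, 1.39 and 2.09 CPM in Intact and at 45.4, 41.0 and 46.2 CPM in +MSC-1w. Sprr1a, a protein of regrowing axons, was at 0.0546 CPM in Intact 1 and at 0 in the other Intact libraries, and at 0.541, 0.875 and 2.13 CPM in +MSC-1w. Gap43, a protein of growth cones, had 0.60 [0.06, 1.15] and was not a DEG. Atf3 and the DEGs Hspb1, Gadd45a and Klf6 are also expressed by cells other than neurons. Of 9 immediate early genes, Fos, Junb, Egr1 and Ier2 were DEGs higher, against 7.87% of all genes, with log2 fold changes from 1.41 to 2.19.

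Of 15 neurotrophic factor and receptor genes, 4 were DEGs higher in +MSC-1w, against 7.87% of all genes, among them Igf1, Lif and Ngfr. Igf1, insulin-like growth factor 1, was at 4.53 to 10.6 CPM in Intact and at 42.8, 68.9 and 70.6 CPM in +MSC-1w. Ngfr, the receptor p75, was at 7.45 to 13.1 CPM in Intact and at 68.1, 38.3 and 34.5 CPM in +MSC-1w. Bdnf was at 2.13 to 3.27 CPM in Intact and at 5.62, 4.63 and 2.36 CPM in +MSC-1w, and its receptor Ntrk2 had -0.03 [-0.48, 0.41]. Without +MSC-1w 1 the count was 2. Reads that mapped to the human genome had been removed before these counts were made.

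Cell division genes were lower than at transplantation, and some were above Intact. Against sub-SCI, 14 of 19 were lower DEGs in +MSC-1w, where 3.52% of all genes were, and the median log2 fold change was -2.19. Against Intact, 7 were higher DEGs, where 7.87% of all genes were, with a median of 0.99. Without Intact 3 the count was 4. Top2a, the topoisomerase of dividing cells, was at 3.38, 5.86, 2.04 and 8.78 CPM in Intact, at 18.5, 21.8 and 19.4 CPM in +MSC-1w and at a mean of 99.8 CPM in sub-SCI. Mki67, the proliferation marker Ki-67, was at 6.60, 8.98, 6.15 and 22.7 CPM in Intact and at 23.3, 28.2 and 28.5 CPM in +MSC-1w, and did not pass with an adjusted p of 0.015 by edgeR.

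Iron handling was raised in part. Of 13 iron and heme genes, Cp, Hmox1, Ftl1 and Slc11a1 were DEGs higher in +MSC-1w, against 7.87% of all genes. Hmox1, which breaks down heme, was at 13.7 to 19.4 CPM in Intact and at 76.0, 112 and 80.3 CPM in +MSC-1w, beside a mean of 600.0 CPM in sub-SCI. Cp, the ferroxidase ceruloplasmin, had a log2 fold change of 2.62 [1.98, 3.25]. Tfrc, the transferrin receptor, had -0.84 [-1.18, -0.50], and Slc40a1, the iron exporter, -0.12 [-0.81, 0.56]. Ftl1 has close copies in the rat genome, so its value is uncertain.

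The medians of vessel and ependymal genes lay near the intact level. The median of 13 endothelial and barrier genes was 0.11, with members from -1.32 to 1.24. Of these, Mfsd2a, a lipid transporter of the blood-brain barrier, was a lower DEG, against 2.63% of all genes. Mfsd2a was at 54.0 to 68.1 CPM in Intact and 27.9, 19.8 and 23.5 CPM in +MSC-1w. This call was lost when any 1 of the 7 libraries was left out. Tek had 0.10 [-0.20, 0.40] and Slc2a1, the glucose transporter of the barrier, -0.18 [-0.60, 0.23]. None of 13 cilia genes of ependymal cells was a DEG, with a median of -0.12. Ccdc39 had -0.12 [-0.38, 0.14]. The listed endothelial genes Pecam1, Cldn5 and Abcb1a and the listed ependymal genes Foxj1 and Rsph4a were not among the genes tested.

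Genes of cells that enter a segment with roots, blood or muscle gave few calls. None of 10 Schwann cell genes was a DEG, with a median of 0.76, which was 0.44 without Intact 1, 0.44 without +MSC-1w 1 and 1.21 without Intact 2, where 1 member was a higher DEG. Prx, a protein of peripheral myelin, was at 3.17, 120, 78.0 and 64.3 CPM in Intact and at 156, 102 and 69.8 CPM in +MSC-1w. Of 8 neutrophil genes, Csf3r was a higher DEG, against 7.87% of all genes, and the count was 2 without Intact 4. S100a8 was at 2.62, 13.1, 5.64 and 42.3 CPM in Intact and at 42.9, 16.2 and 62.3 CPM in +MSC-1w. None of 8 muscle genes was a DEG, with a median of -2.79 that was 0.39 without Intact 4, none of 5 red cell genes and none of 8 dorsal root ganglion genes. Tnnc2, a troponin of fast muscle and among the 10 lower DEGs with the largest fold change, was at 13.8, 11.7, 14.7 and 35.7 CPM in Intact and at 4.39, 3.50 and 3.19 CPM in +MSC-1w. None of 10 MHC class II genes was a DEG, with a median log2 fold change of 1.73. RT1-Ba was at 0.180, 2.11 and 50.5 CPM in +MSC-1w, so that 1 library held nearly all of it, and without +MSC-1w 3 the median of the list was 1.05.

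Among genes outside the lists, the 10 higher DEGs with the largest fold change and at least 5 CPM included Fcrl2, an Fc receptor-like protein, Ifitm1, an interferon-induced membrane protein, Siglec1, the sialoadhesin of macrophages, Lilrb4, an inhibitory receptor of myeloid cells, and Sost, the Wnt inhibitor sclerostin. Siglec1 was at 0.546, 2.11, 4.39 and 2.36 CPM in Intact and at 98.5, 148 and 112 CPM in +MSC-1w. Sost, better known from bone, was at 0, 0, 0.139 and 0.228 CPM in Intact and at 10.04, 6.89 and 5.51 CPM in +MSC-1w. Its difference from sub-SCI was 0.23 [-0.97, 1.43]. The lower DEGs chosen in the same way included Thsd7b, Kcnh7, Pla2g3, Rtkn2 and Epn3. Kcnh7, a potassium channel, was at 4.49 to 6.98 CPM in Intact and at 0.962, 1.9 and 1.02 CPM in +MSC-1w. Rtkn2 was at 22.5 to 26.6 CPM in Intact and at 4.81, 7.29 and 6.07 CPM in +MSC-1w.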

How the data were processed

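RNA sequencing counts of rat spinal cord were analysed for 26 libraries in 8 groups, with +MSC-1w (n = 3) against Intact (n = 4) as the comparison described. The authors deposited raw read counts per gene, as 1 table per library and 1 joint table, and the 26 single tables hold the same counts as the joint one. According to the submitters' processing notes, Trim Galore 0.5.0, HISAT2 2.1.0, SAMtools 1.9 and featureCounts 1.6.4 were used with the human build GRCh38. The study's methods state that reads mapping to the human genome were removed before reads were aligned to Rnor6. The annotation release and strand setting are not given in the sources used here, so overlapping genes, antisense genes and near-identical copies may share reads.

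Of 32883 genes, 6513 had no count in any library and 17990 passed edgeR's expression filter. In R 4.3.3, edgeR 4.0.16 (with limma 3.58.1) fitted the quasi-likelihood model to all 26 libraries with the 8 groups as levels after TMM scaling, and p-values were adjusted by Benjamini-Hochberg over all genes tested. Intervals of 95% were taken from the quasi-likelihood F and its total degrees of freedom. The procedure was also run on simulated counts. Equal numbers of genes were raised and lowered there, all beyond the fold threshold, so the run does not bear on calls near it. Where a symbol had several gene IDs (Apoc1, Slc40a1, Cfb and Hba-a2), the ID with the most counts was used.

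Gene lists were described by counts of DEGs and medians, with no test of a list. The comparison, the lists and their members were chosen with earlier results of these data known. Genes were named where they ranked among the 10 smallest p-values of the higher or of the lower DEGs, among the 10 of each direction with the largest fold change and at least 5 CPM in the higher group, list members with the smallest p or the highest level among those not called, and DEGs between +MSC-1w and +PBS-1w. Further list members were named for their role with their values known. Promoter sequences are from RefSeq, build GRCr8, with the first promoter listed for a symbol. The values of some members of the lists are not reported here, and the counts and medians of the lists include them.

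Replicate numbers did not pair the samples: the deviations of same-numbered +MSC-1w and Intact libraries correlated over genes at 0.22, 0.07 and 0.04. Alternatives were DESeq2 1.42.0, a model of the compared groups alone, size factors by median of ratios, all genes with any count, a minimum of 10 counts per library, the replicate block, a term for replicate 1 or leaving out all replicate 1 libraries, a test against a log2 fold change of 1 (glmTreat), and leaving out each library. Depth was 19496602 to 33484347 counts in the 7 libraries, and values under 1 CPM rest on few reads.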

Additional observations from a re-analysis of the deposited data

Results flagged for a closer look

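Among the 192 genes named in the report, 10 had 1 Intact library whose gap to the nearest other library, divided by the range of the group, exceeded Dixon's 95% critical value for 4 samples. Chance flags about 1 in 20 groups, and the 10 of 192 flagged here are close to that share. Intact 4 was the highest library for Acta1 with 160 CPM, Tnnc2 with 35.7 CPM and Mki67 with 22.7 CPM, and Acta1 and Tnnc2 are both genes of skeletal muscle. Intact 1 was the highest for Snap25 with 1691 CPM and Sprr1a with 0.0546 CPM, and the lowest for Klf6 with 8.08 CPM. Sprr1a had no count in the other Intact libraries. Intact 2 was the highest for Gfap with 5415 CPM and Srebf2 with 281 CPM, and the lowest for Penk with 98.1 CPM. Intact 3 was the lowest for Apoe with 2433 CPM.

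Ninj1 and Htr2b differed between the stem cell and the vehicle groups at 1 week by the direct contrast of +MSC-1w with +PBS-1w. The log2 fold change was -1.02 for Ninj1 and -1.83 for Htr2b, with adjusted p-values of 0.00212 and 0.00795 by edgeR's quasi-likelihood test. For both genes all 3 +MSC-1w libraries lay below all 3 +PBS-1w libraries. Both were named because they passed this contrast, so that separation is no further support.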

How the results depend on the processing

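The count of genes higher in +MSC-1w than in Intact, 1416, stayed between 1175 and 1669 under every alternative other than glmTreat, which tests against a log2 fold change of 1 and gave 571, and was 1222 to 1410 when 1 library was left out. The count of lower genes, 474, was 757 with DESeq2 on all libraries, 928 with DESeq2 and 837 with edgeR on the compared groups alone, and 19 with glmTreat, and 176 to 388 when 1 library was left out. Against sub-SCI, the 1163 higher genes were 590 with edgeR on the compared groups alone, 24 with glmTreat, and 482 to 1110 with 1 library left out. The 633 lower genes were 31 with glmTreat and 330 to 669 with 1 library left out. With the replicate block the counts against Intact were 1517 higher and 582 lower. The glmTreat counts are lower because it asks for a change above the threshold itself, and the cause of the other differences was not tested. Of the 192 genes named in the report, 129 kept their call under every alternative, and none that was called changed direction. The median of the skeletal muscle list, -2.79, ran from -3.18 to 0.39 with 1 library left out, and changed sign without Intact 4.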
